A study of Yarrowia lipolytica with 11 samples.

Results

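The 6 genes examined here were listed for the part of the tricarboxylic acid (TCA) cycle that runs from succinyl-CoA to oxaloacetate in the oleaginous yeast Yarrowia lipolytica. They were picked by locus tag: LSC1 (YALI0_E24013g) and LSC2 (YALI0_D04741g) for succinyl-CoA ligase, SDH1 (YALI0_D11374g) and SDH2 (YALI0_D23397g) for succinate dehydrogenase, FUM1 (YALI0_C06776g) for fumarase and MDH1 (YALI0_D16753g) for mitochondrial malate dehydrogenase. All 6 were among the 7135 genes of the deposited table, and all 6 passed the filter on low counts that left 6301 genes for testing. The table holds locus tags without names for nuclear genes, so names come from published assignments that no table used here could test.

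In this segment succinyl-CoA ligase, made of an alpha and a beta subunit, turns succinyl-CoA into succinate and makes a nucleoside triphosphate. Succinate dehydrogenase oxidizes succinate to fumarate and is at the same time complex II of the respiratory chain, so it feeds electrons straight to ubiquinone. Fumarase hydrates fumarate to malate, and malate dehydrogenase oxidizes malate to oxaloacetate, the acceptor of the next acetyl-CoA. In an oleaginous yeast the cycle draws on the same acetyl-CoA and citrate as storage lipid synthesis.

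Transcripts were measured by RNA-seq in 11 libraries from 4 groups. The wild type was grown in YPC medium without acid (3 libraries) or with 1 g/L hexanoic acid, a medium-chain fatty acid (3 libraries). The mutant, which carries a pex10 deletion and a DGA1 overexpression plasmid, was grown without acid (2 libraries) or with 1 g/L hexanoic acid (3 libraries). PEX10 encodes a peroxin, a protein of peroxisome assembly, and DGA1 a diacylglycerol acyltransferase of storage lipid synthesis. All groups shared the medium and were harvested in exponential phase from independent colonies, per the labels' protocols. Both alterations sit in the same strain, so their effects cannot be told apart. The sources used here give neither the plasmid's promoter nor whether the wild type carried any plasmid.

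The libraries held between 9988288 and 17519857 counts. Gene levels are in CPM, reads of the gene relative to a library size scaled by TMM, a method that makes libraries comparable. Transcripts of different lengths are not compared by level, because no transcript lengths were used here. PEX10 (YALI0_C01023g) was at 5.013 to 8.041 CPM in the 5 mutant libraries and at 10.66 to 20.5 CPM in the 6 wild-type libraries, so the strains did not overlap but mutant libraries still held PEX10 reads. DGA1 (YALI0_E32769g) was at 3012 to 7807 CPM in the mutant and at 110.9 to 227.3 CPM in the wild type. The 2 untreated mutant libraries had the lowest correlation of log2 CPM of any pair within a group (0.956, against 0.965 to 0.99 for the others). Results on the 6 genes that rest on 1 of these libraries are marked below. Untreated wild-type replicate 2 also stood apart, with correlations of 0.965 and 0.971 with replicates 1 and 3, which had 0.989 with each other. Fold changes come from edgeR's quasi-likelihood test, with 1 mean per group, and are given on the log2 scale ± standard error, with p-values adjusted by Benjamini-Hochberg over all 6301 genes. A gene passed when its adjusted p was under 0.05.

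Succinyl-CoA ligase transcripts rose with hexanoic acid in both strains and were also higher in the untreated mutant than in the untreated wild type. LSC1, the alpha subunit, was at 248.3, 322.5 and 248.2 CPM in the untreated wild type and at 756, 735.9 and 733.4 CPM in the wild type with acid. In the mutant it was at 423.9 and 420.5 CPM without acid and at 760.6, 846 and 853.7 CPM with acid. The untreated mutant therefore lay between the untreated wild type and all 6 acid-treated libraries, with no overlap between these 3 levels. Bulk RNA averages over a culture, so fewer cells with the transcript and less transcript per cell cannot be told apart. LSC1 changed by 1.44 ± 0.18 with acid in the wild type (adjusted p = 3.08e-05) and by 0.96 ± 0.20 in the mutant (adjusted p = 0.00775). The untreated mutant exceeded the untreated wild type by 0.63 ± 0.19 (adjusted p = 0.0225). This strain difference was the least secure of the LSC1 calls: it did not pass when untreated mutant replicate 1 (0.62) or 2 (0.64), or untreated wild-type replicate 1 (0.56) or 3 (0.56), was left out, or when only the groups compared were fitted (0.62), and its adjusted p ran from 0.000987 to 0.0895 over the alternatives.

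LSC2, the beta subunit, had a larger estimated change than LSC1 in the wild type. It was at 289.2, 319.5 and 296.2 CPM without acid and at 1479, 1539 and 1632 CPM with acid, a 5.14-fold rise (2.36 ± 0.17, adjusted p = 9.46e-07). In the mutant it was at 789.8 and 698.9 CPM without acid and at 1495, 1660 and 1660 CPM with acid, a 2.16-fold rise (1.11 ± 0.19, adjusted p = 0.00313). The wild-type and mutant libraries with acid overlapped, while both untreated groups stood apart from them and from each other. Without acid the mutant was 2.47-fold higher than the wild type (1.30 ± 0.18, adjusted p = 0.000243). Each of these 3 LSC2 calls held in all 20 alternatives run.

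Neither succinate dehydrogenase gene passed as higher in any comparison. SDH1, the flavoprotein subunit that holds the succinate site, fell with acid in the wild type, from 188.1, 250.3 and 218.1 CPM to 112.5, 148.4 and 151.8 CPM. Untreated mutant libraries were at 114.5 and 150.6 CPM, in the range of the acid-treated wild type, and mutant libraries with acid at 130.4, 223.1 and 134.9 CPM. Every untreated wild-type library was above every acid-treated wild-type library and every untreated mutant library, while acid-treated mutant replicate 2 reached into the untreated wild-type range. The fall in the wild type was −0.67 ± 0.23 (adjusted p = 0.0287). It did not pass without acid-treated replicate 1 (−0.54) or without untreated replicate 2 (−0.56) or 3 (−0.67), and its adjusted p ran from 0.0113 to 0.103 over 20 alternatives. The untreated mutant differed from the untreated wild type by −0.72 ± 0.27, just short of the threshold (adjusted p = 0.0506), and in 7 of 20 alternatives this difference passed. In the mutant the change with acid was 0.30 ± 0.26 (adjusted p = 0.486), with a 95% interval from −0.28 to 0.87.

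SDH2, the iron-sulfur subunit that passes the electrons on, passed no test. It was at 52.54, 85.97 and 73.01 CPM in the untreated wild type and at 75.06, 91.81 and 120.6 CPM with acid. Mutant libraries had 44.36 and 86.19 CPM without acid and 73.59, 126.7 and 66.37 CPM with acid. All 4 groups overlapped, and single libraries within a group differed as much as groups did. With acid it changed by 0.44 ± 0.32 in wild-type cells (95% interval −0.25 to 1.14) and by 0.45 ± 0.36 in mutant cells (95% interval −0.34 to 1.23). Both intervals include rises as well as small falls.

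Fumarase transcripts rose in both strains. FUM1 was at 181.3, 260.2 and 187.5 CPM in the untreated wild type and at 1132, 970.9 and 1082 CPM with acid, a 5.06-fold rise (2.34 ± 0.22, adjusted p = 5.08e-06). In the mutant it was at 539 and 790.2 CPM without acid and at 1227, 1383 and 1276 CPM with acid. No pair of groups overlapped for FUM1, and the mutant with acid was the highest. With acid, the mutant-minus-wild-type difference of FUM1 did not pass in edgeR (0.29 ± 0.21, adjusted p = 0.409). The share of all tested genes with no overlap between groups was not counted, here or for the other genes. The rise with acid in the mutant was 0.96 ± 0.24 (adjusted p = 0.0193). That call was lost without untreated mutant replicate 1 (0.71) or acid-treated mutant replicate 2 (0.91) and with a fit to only the groups compared (0.94), over a range of adjusted p from 0.000668 to 0.165. Untreated mutant libraries exceeded untreated wild-type libraries 3.17-fold (1.66 ± 0.23, adjusted p = 0.000246), which held in all 20 alternatives.

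MDH1 had the widest range of the 6 genes. Its 3 untreated wild-type libraries were at 154.7, 102.8 and 124.3 CPM, and the 3 with acid at 3369, 3647 and 4268 CPM. The mutant was at 1776 and 1911 CPM without acid and at 4052, 3733 and 3621 CPM with acid. Untreated libraries of the strains were thus far apart, and the acid-treated libraries of both strains overlapped. MDH1 changed by 4.89 ± 0.24 with acid in the wild type (adjusted p = 8.44e-08), the 43rd highest log2 change among the 6301 genes tested. In the mutant it changed by 1.04 ± 0.23 (adjusted p = 0.0106), a call lost without untreated mutant replicate 1 (0.99, with adjusted p from 1.25e-05 to 0.0771 over 20 alternatives). Without acid the strains differed by 3.86 ± 0.23 (adjusted p = 9.7e-07), the 58th highest difference. MDH1 reads made up 0.0129% ± 0.00289 (SD, n = 3) of all counts in the untreated wild type, 0.351% ± 0.0225 (n = 3) with acid, 0.193% ± 0.0212 (n = 2) in the untreated mutant and 0.391% ± 0.0117 (n = 3) in the mutant with acid.

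**Figure D1:**
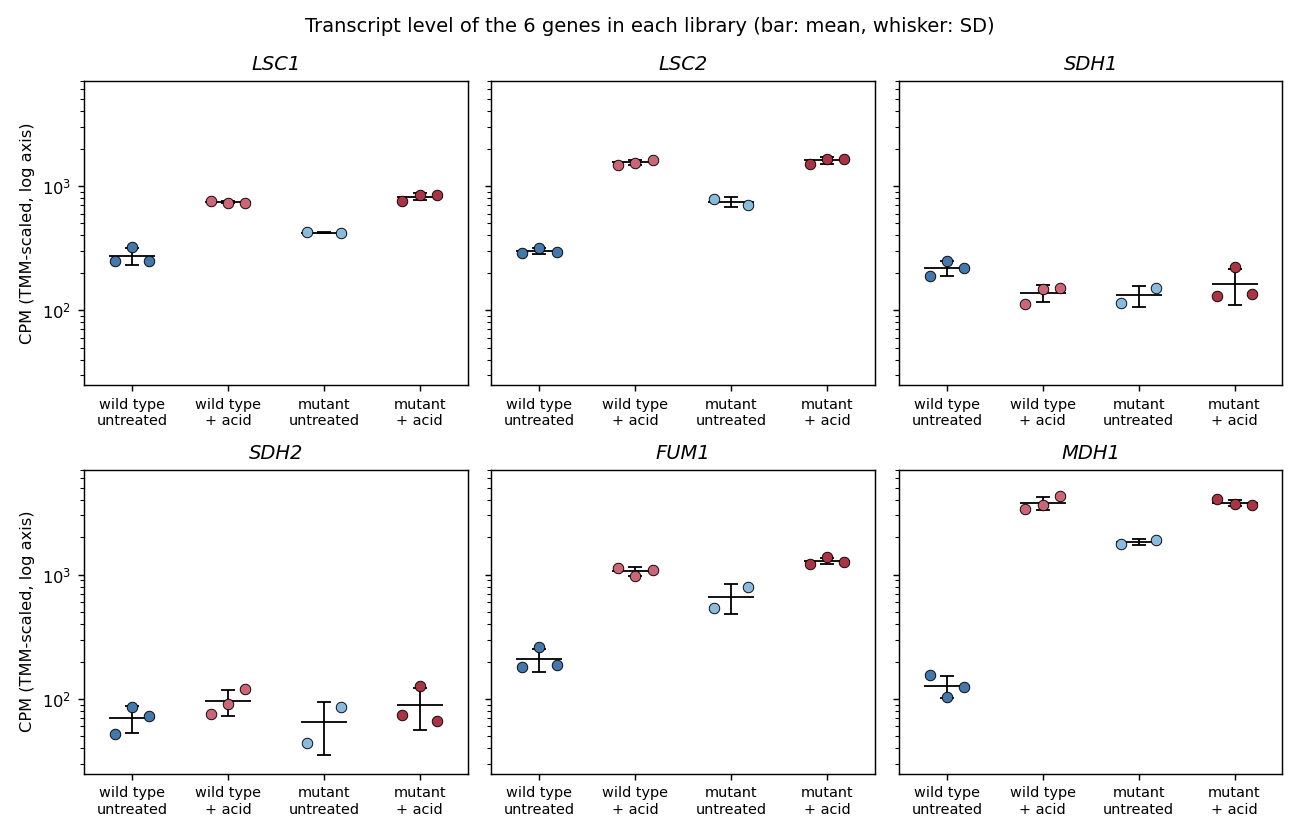
Transcript level of the 6 genes in TMM-scaled CPM on a log axis, with 1 point per library, a bar at the group mean and whiskers of 1 SD (2 or 3 libraries per group). LSC1, LSC2, FUM1 and MDH1 rise from the untreated wild type through the untreated mutant to the acid-treated groups, whereas SDH1 and SDH2 stay within 112.5 to 250.3 and 44.36 to 126.7 CPM; levels of different genes are not length-corrected.

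The first comparison asked how the segment responds to hexanoic acid in the wild type. LSC1, LSC2, FUM1 and MDH1 rose and SDH1 fell, so 5 of 6 genes passed, where 56.5% of all tested genes passed. For rises alone the count was 4 of 6 against 28.5% of all genes, and for falls 1 of 6 against 28.0%. The median log2 change was 1.89 over the 6 genes and −0.01 over all genes tested. Together the 6 genes went from 0.121% ± 0.0113 to 0.687% ± 0.0389 of all counts (SD, n = 3 each). MDH1 had the largest part in this sum, from 0.0129% to 0.351%, while SDH1 went from 0.022% to 0.0128%.

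The second comparison asked the same of the mutant. LSC1, LSC2, FUM1 and MDH1 rose, with log2 changes between 0.96 and 1.11, and neither succinate dehydrogenase gene passed. Of all tested genes 17.6% passed and 7.95% rose, against 4 of 6 here, and the median log2 change was 0.96 over the 6 genes and −0.01 over all genes. Without untreated mutant replicate 1 the number that passed dropped from 4 to 2, LSC1 and LSC2.

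The next comparison set the untreated mutant against the untreated wild type. LSC1, LSC2, FUM1 and MDH1 were higher, 4 of 6 where 22.8% of all genes were higher (38.1% passed in either direction), and the differences spread from 1.55-fold for LSC1 to 14.5-fold for MDH1. No gene of the segment passed as lower (15.3% of all genes did), with SDH1 closest. The segment's share of all counts was 0.405% ± 0.0516 (n = 2) in the untreated mutant. This comparison and the first share the 3 untreated wild-type libraries.

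With acid present no gene of the segment passed the test between the strains. None of 6 passed in edgeR (10.7% of all genes did), none had an unadjusted p under 0.05, and none passed in DESeq2 (0 in each count). The 95% interval of the mutant-minus-wild-type difference was −0.42 to 0.45 for MDH1, −0.31 to 0.41 for LSC2, −0.23 to 0.52 for LSC1 and −0.18 to 0.75 for FUM1. It was wider for SDH1 (−0.27 to 0.75) and SDH2 (−0.80 to 0.59). The segment held 0.802% ± 0.0404 of counts in the mutant with acid (n = 3).

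The difference between the acid responses of both strains was then tested directly. The responses of LSC2, FUM1 and MDH1 were smaller in the mutant, 3 of 6 genes where 15.5% of all genes passed in that direction and 25.5% in either. The difference, mutant response minus wild-type response, was −3.84 ± 0.30 for MDH1 (adjusted p = 1.29e-05), −1.38 ± 0.32 for FUM1 (adjusted p = 0.00886) and −1.25 ± 0.25 for LSC2 (adjusted p = 0.00401). These 3 calls held in all 19 alternatives run for this comparison. By construction this difference also equals the strain difference with acid minus the strain difference without acid. Those were 0.02 and 3.86 for MDH1, 0.29 and 1.66 for FUM1, and 0.05 and 1.30 for LSC2. The smaller responses are therefore not a finding separate from the strain comparisons above. LSC1 did not pass (−0.48 ± 0.26, adjusted p = 0.188). SDH1 had the opposite sign (0.97 ± 0.35) and did not pass (adjusted p = 0.0653), although it passed in 5 of 19 alternatives. SDH2 had an estimate of 0.00 ± 0.47, with an interval from −1.04 to 1.04.

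The untreated mutant was last set against the acid-treated wild type, to ask whether the mutant alone reaches the level that acid gives. It did not for MDH1 (−1.03 ± 0.23, adjusted p = 0.00945), LSC2 (−1.06 ± 0.19, adjusted p = 0.00276) and LSC1 (−0.81 ± 0.20, adjusted p = 0.0136), which were 1.76-fold to 2.08-fold lower in the untreated mutant. This made 3 of 6 genes lower, where 8.24% of all genes were lower and 19.8% passed in either direction. FUM1 was at −0.68 ± 0.24 and missed the threshold (adjusted p = 0.0725), although it passed in DESeq2 (−0.68, adjusted p = 0.0224) and in edgeR without untreated wild-type replicate 2 (−0.68) or untreated mutant replicate 2 (−0.98). SDH1 (−0.05 ± 0.26, interval −0.63 to 0.52) and SDH2 (−0.55 ± 0.36, interval −1.34 to 0.23) did not pass. Without untreated mutant replicate 1 the MDH1 (−0.98) and LSC1 (−0.82) calls were lost, the latter also without replicate 2 (−0.81), and LSC2 alone remained of the 3; adjusted p ran from 9.96e-06 to 0.0623 for MDH1 and from 1.45e-05 to 0.0639 for LSC1 over the alternatives.

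**Figure D2:**
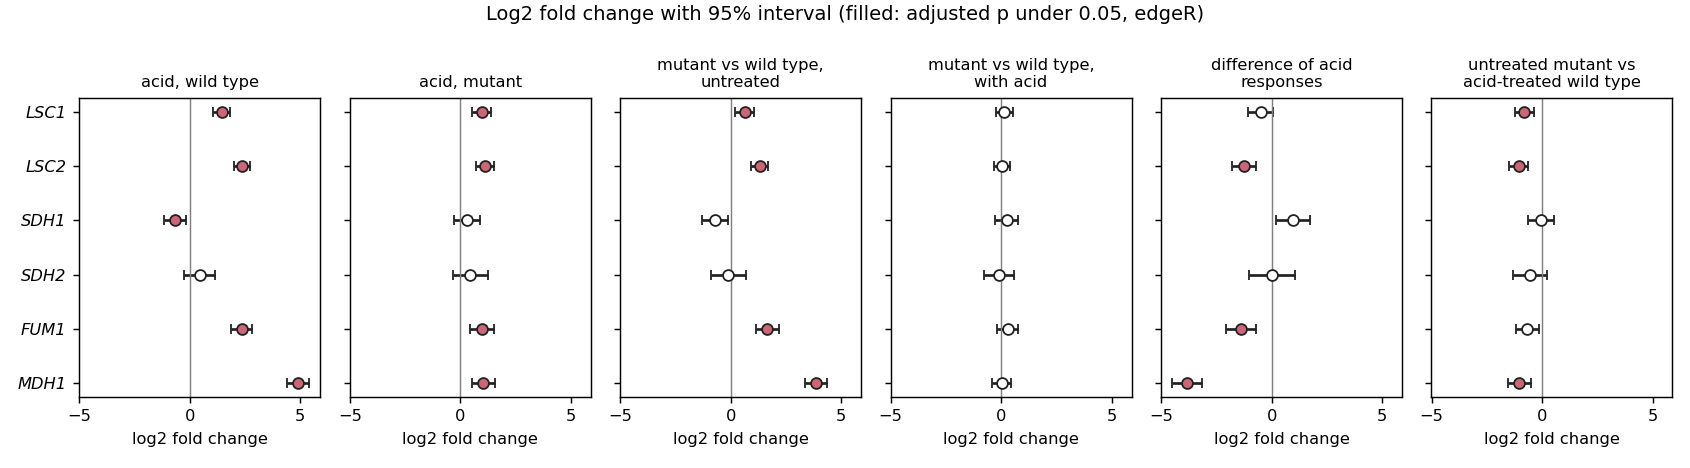
Log2 fold change (points) with 95% interval (whiskers) of the 6 genes in the 6 comparisons, filled where the adjusted p was under 0.05 in edgeR. MDH1 lies at 4.89 with acid in the wild type, 3.86 between untreated strains and 0.02 between strains with acid, and the SDH1 and SDH2 points stay between −0.72 and 0.97.

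Partner subunits did not keep a fixed proportion. The ratio of LSC2 to LSC1 counts within a library, which no scaling between libraries can alter, was 1.16, 0.991 and 1.19 in the untreated wild type and 1.96, 2.09 and 2.23 with acid. In the mutant it was 1.86 and 1.66 without acid and 1.97, 1.96 and 1.94 with acid. The 3 untreated wild-type libraries stood below the other 8, which lay between 1.66 and 2.23. Over both strains the mean log2 ratio was 1.02 ± 0.08 (SD, n = 6) with acid and 0.42 ± 0.38 (n = 5) without. The difference of 0.60 had a two-sided exact permutation p = 0.00433, or 0.0173 adjusted over 4 ratio tests. The test permuted acid labels over all 11 libraries and ignored strain, and 0.00433 is the smallest p it can give. Untreated libraries differed by strain, with a mean log2 ratio of 0.15 for wild-type and 0.82 for mutant libraries. Libraries were therefore not freely exchangeable, and a permutation that keeps strains apart was not run. Within strains the difference was 0.91 for wild-type and 0.15 for mutant libraries, and no test was run within 1 strain, where a two-sided exact permutation test can go no lower than 0.1 for the wild type and 0.2 for the mutant.

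The direction in which a ratio changes depends on which subunit is put first, so directions are not compared between the enzymes. The SDH1 to SDH2 ratio was lower with acid in the wild type. It was 3.58, 2.91 and 2.99 in the untreated wild type and 1.50, 1.62 and 1.26 with acid, without overlap. Mutant libraries had ratios of 2.58 and 1.75 without acid and of 1.77, 1.76 and 2.03 with acid, which overlap. The mean log2 ratio was 0.71 ± 0.24 with acid (n = 6) and 1.43 ± 0.39 without (n = 5), a difference of −0.71 (two-sided exact permutation p = 0.0173, 0.0346 adjusted over 4 tests). This permutation ignored strain as well, while untreated means were 1.65 for wild-type and 1.09 for mutant libraries. Within strains the difference with acid was −1.12 for wild-type and −0.20 for mutant libraries. Leaving out any 1 of the wild-type libraries, or untreated mutant replicate 1, gave an adjusted p of 0.0635 or 0.0762, with differences from −0.73 to −0.61 in those 7 cases, and the call held when any 1 of the other 4 libraries was left out. Neither ratio passed the test between the strains over both conditions (exact permutation p = 0.234 for LSC2 to LSC1 and 0.68 for SDH1 to SDH2, n = 5 and 6). That test permuted strain labels and ignored acid.

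**Figure D3:**
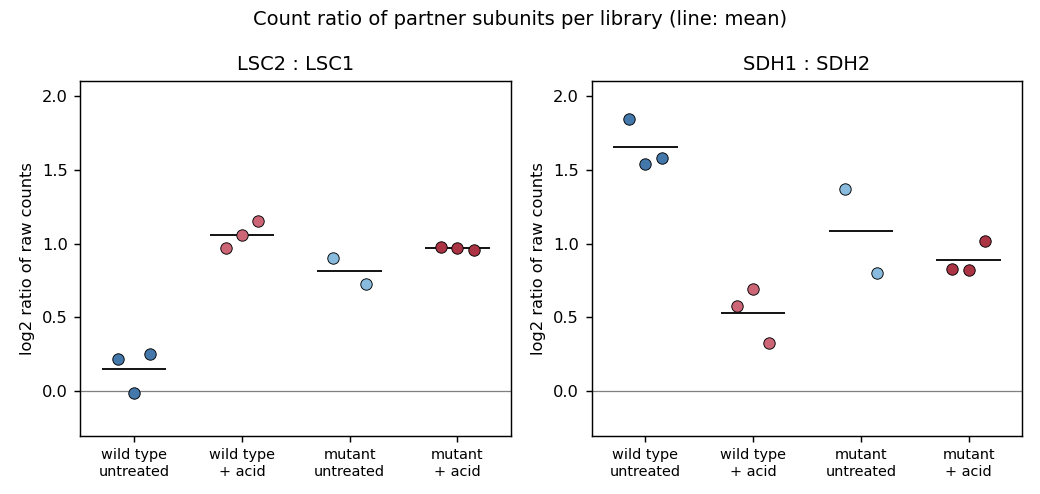
Log2 ratio of raw counts of LSC2 to LSC1 and of SDH1 to SDH2, 1 point per library and a line at each group mean. Untreated wild-type libraries lie lowest for the ligase (−0.01 to 0.25) and highest for the dehydrogenase (1.54 to 1.84).

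Across all 11 libraries, log2 CPM of LSC1, LSC2, FUM1 and MDH1 correlated with each other at Pearson r from 0.922 to 0.985, and that of SDH1 with these 4 at −0.681 to −0.488. These values are descriptions over libraries that share groups, and differences between groups enter them. Within groups, after removal of group means, SDH1 and SDH2 varied together (r = 0.924). Of the other 4 genes, LSC1 had r = 0.598 with LSC2 and 0.678 with FUM1, and LSC2 had 0.021 with FUM1. MDH1 had r = −0.773 with LSC1, −0.352 with LSC2 and −0.442 with FUM1. These values rest on 11 libraries with 4 group means removed. For SDH3 (YALI0_E29667g), listed as a membrane anchor of the same complex, r within groups was 0.937 with SDH1 and 0.899 with SDH2. For SDH5 (YALI0_F11957g), listed as an assembly factor of the complex, it was 0.314 with SDH1 and 0.411 with SDH2. Within-group r was not computed over all pairs of genes, so these values have no background to be read against.

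The rest of the pathway was read from lists of locus tags. Of 6 upstream TCA cycle genes (CIT1, ACO1, IDH1, IDH2, KGD1 and KGD2), 5 rose with acid in the wild type (28.5% of all genes did), 4 rose in the mutant (7.95%) and 4 were higher in the untreated mutant (22.8%), and none fell in these 3 comparisons. Their median log2 changes were 2.44, 1.08 and 1.33, against −0.01, −0.01 and −0.03 over all genes tested. CIT1, which encodes a citrate synthase, changed by 3.17 ± 0.25 with acid in the wild type, and IDH1 and IDH2, subunits of the NAD-dependent isocitrate dehydrogenase, by 2.89 ± 0.23 and 2.72 ± 0.21. ACO1, aconitase, was the one that did not pass in either strain (−0.16 ± 0.23 and −0.13 ± 0.25). With acid, KGD2, the succinyltransferase subunit of oxoglutarate dehydrogenase, was lower in the mutant (−0.63 ± 0.17, adjusted p = 0.0433) and the other 5 upstream genes did not pass. Among the members and these upstream genes, ACO1, SDH1 and SDH2 were thus those that passed as higher with acid in neither strain.

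**Figure D4:**
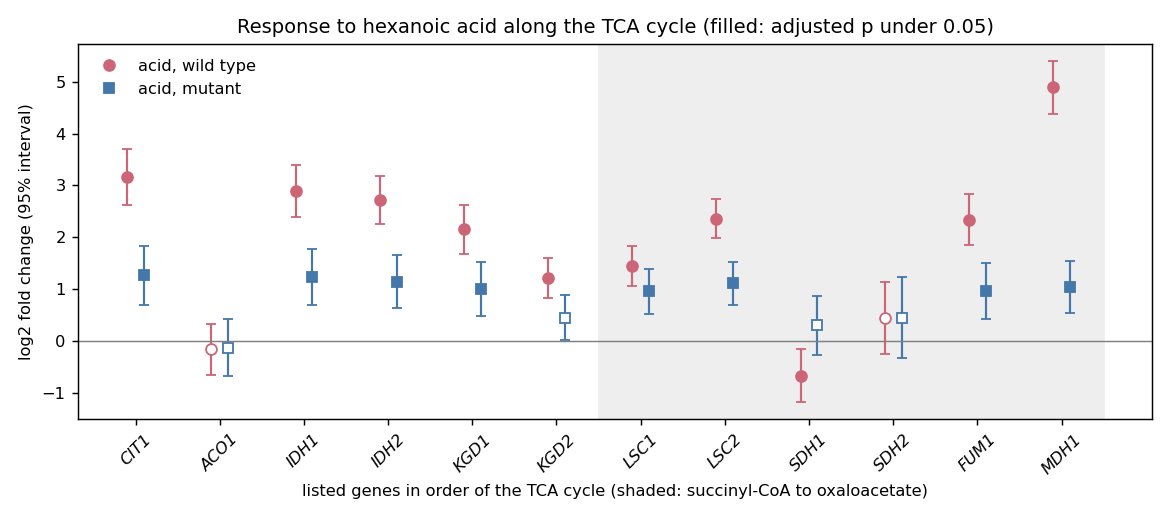
Log2 fold change with hexanoic acid (points) and 95% interval (whiskers) in the wild type (circles) and the mutant (squares) for 12 listed genes in the order of the TCA cycle, filled where the adjusted p was under 0.05. ACO1, SDH1 and SDH2 are the genes that passed as higher in neither strain, and MDH1 has the highest wild-type value, 4.89.

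Of 3 tags listed for the rest of succinate dehydrogenase, SDH3 and SDH5 (YALI0_F11957g, an assembly factor) were tested and a tag listed as SDH4 was not analysed here. Neither passed in any of the 6 comparisons in edgeR, at an unadjusted p under 0.05 or in DESeq2 (0 in each). SDH3 was at 46.66 ± 11.4 CPM in the untreated wild type and 33.2 ± 9.74 with acid (SD, n = 3 each), a change of −0.49 ± 0.31. SDH5 stood at 46.14 ± 17.7 and 43.59 ± 10.7 CPM, a change of −0.08 ± 0.27.

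Among 6 listed enzymes that also make or use malate, succinate or oxaloacetate, 4 rose and 1 fell with acid in the wild type (28.5% and 28.0% of all genes), while 1 rose in the mutant (7.95%). MDH2 (YALI0_E14190g), a second malate dehydrogenase, rose in both strains (3.01 ± 0.20 and 1.71 ± 0.22), from 158.5 ± 12.1 to 1277 ± 153 CPM in the wild type. MAE1 (YALI0_E18634g), malic enzyme, which turns malate to pyruvate, rose in the wild type (5.69 ± 0.26) and not detectably in the mutant (0.47 ± 0.24, adjusted p = 0.203). MLS1 (YALI0_D19140g), malate synthase of the glyoxylate cycle, changed by 1.87 ± 0.26 and −0.04 ± 0.28. ICL1 (YALI0_C16885g), isocitrate lyase, makes succinate and glyoxylate in the same cycle. It was the gene that fell in the wild type (−0.91 ± 0.23, adjusted p = 0.00498), and it did not pass in the mutant (−0.45 ± 0.25, adjusted p = 0.252). In the untreated mutant 3 of the 6 were higher and 2 lower than in the untreated wild type (22.8% and 15.3% of all genes), with MAE1 at 4.71 ± 0.26, MDH2 at 1.57 ± 0.21 and MLS1 at 1.46 ± 0.28. The 2 lower ones were ICL1 (−1.29 ± 0.26, adjusted p = 0.00289) and PYC1 (pyruvate carboxylase, −0.65 ± 0.22, adjusted p = 0.0363). With acid 3 of 6 were lower in the mutant (5.68% of all genes were), with PCK1 (phosphoenolpyruvate carboxykinase) at −1.92 ± 0.48, ICL1 at −0.83 ± 0.23 and PYC1 at −0.69 ± 0.19.

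The genes with the most similar pattern to each of the 6 were taken by Pearson r of log2 CPM over the 11 libraries. For LSC1, LSC2, FUM1 and MDH1 the 3 most similar genes had r from 0.985 to 0.999, and for SDH1 and SDH2 only from 0.814 to 0.925. Differences between groups enter these values too. LSC2 was among the 3 for LSC1 (0.985, and 0.598 within groups). For LSC2, YALI0_D05995g was first (0.994, and 0.075 within groups) and MDH2 was among the 3 (0.993, and 0.353 within groups). YALI0_D20768g was first for FUM1 (0.993, and 0.778 within groups). MDH1 was followed most closely by YALI0_B03982g (0.999, and 0.960 within groups), at 535.7 ± 115 CPM in the untreated wild type, 6780 ± 544 with acid (SD, n = 3 each), 3975 ± 271 in the untreated mutant (n = 2) and 7627 ± 433 in the mutant with acid (n = 3). YALI0_A14784g was first for SDH1 (0.925, and 0.861 within groups) and YALI0_A14806g for SDH2 (0.860, and 0.854 within groups).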

How the data were processed

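The authors deposited raw counts for 7135 genes and a second table of normalized values, a signal obtained as count over library size factor (checked on the values, largest relative spread 9.71e-10). Tools named in the submitters' processing notes were STAR 2.7.9a and SAMtools 1.9, HTSeq 0.11.0, FastQC 0.11.7, and DESeq2 1.32.0. The build, annotation and strand setting were not given in the sources used here. Whether reads of overlapping, antisense or near-identical genes were separated was not tested. Libraries were directional and sequenced on an Illumina NovaSeq instrument, per the labels' protocols.

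Deposited counts were tested with edgeR 4.0.16 under R 4.3.3, after TMM scaling and filterByExpr on the 4 groups (834 genes removed). One mean per group was fitted over all 11 libraries with robust=TRUE, and quasi-likelihood F tests were adjusted over 6301 genes. Standard errors are |log2 fold change| / sqrt(F). The log2 CPM values used a prior count of 2. DESeq2 1.42.0 served as an alternative, and exact permutation of ratios used scipy 1.17.1. The fit was checked on simulated data.

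Members and lists were chosen with earlier results of these data known. Named genes were the 6 members, up to 3 passing genes with the largest change per list and comparison, and the 3 genes most similar to each member. ACO1, SDH3 and SDH5 were named besides, after their values were seen. So were ICL1 for acid in either strain, and ICL1 and PYC1 between untreated strains. Among the flagged results, every listed gene that passed the test of the response difference was named, beyond that limit of 3. None of 23 listed tags matched the reference table (0 matches), and 22 were in the deposited tables. Libraries of 1 group differed far beyond sampling noise (chi-square per degree of freedom at least 39.48), so each counted as 1 replicate. The biological coefficient of variation common to all genes was 23.8%.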

Additional observations from a re-analysis of the deposited data

Results flagged for a closer look

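The groups held 2 or 3 libraries, too few to test single libraries as outliers. The genes below stood out because their response to hexanoic acid differed between the strains by the direct test of that difference (mutant response minus wild-type response, log2, edgeR with adjusted p under 0.05). In the segment these were MDH1 (−3.84), FUM1 (−1.38) and LSC2 (−1.25). MDH1's value was the 82nd lowest of 6301 genes. Among upstream TCA cycle genes they were CIT1 (−1.91), IDH1 (−1.66), IDH2 (−1.58) and KGD1 (−1.15). Among the other enzymes of malate, succinate and oxaloacetate they were MAE1 (−5.22), PCK1 (−2.07), MLS1 (−1.91) and MDH2 (−1.30). PCK1 passed narrowly (± 0.69, adjusted p = 0.0462), and its 2 untreated mutant libraries were far apart, at 125.2 and 488 CPM. Between strains PCK1 differed by 0.15 ± 0.51 without acid and by −1.92 ± 0.48 with acid. In each of these 11 genes the wild type had the larger response.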

How the results depend on the processing

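No gene of the segment that passed changed direction in any of the 20 alternatives (19 for the response difference), and none passed between strains with acid in any (0 of 6 throughout). Estimates near 0 that had not passed changed sign with total counts only, SDH2 between strains with acid (0.05) and SDH1 in the untreated mutant against the acid-treated wild type (0.12). Some also did so with 1 library left out, where SDH2 between untreated strains ran from −0.67 to 0.29, SDH1 in the untreated mutant against the acid-treated wild type from −0.26 to 0.13 and, between strains with acid, MDH1 from −0.06 to 0.12, SDH1 from −0.05 to 0.39 and SDH2 from −0.45 to 0.09.

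With 1 library left out, the number of the 6 genes that passed ran from 2 to 4 for acid in the mutant and from 1 to 4 for the untreated mutant against the acid-treated wild type. Counts over all genes ran from 447 to 1419, from 746 to 1478, from 1375 to 2401 (untreated strains) and from 134 to 924 (strains with acid). The lowest of these came without untreated mutant replicate 1 for the first and second counts, without untreated mutant replicate 2 for the third and without acid-treated wild-type replicate 3 for the fourth. The SDH1 to SDH2 log2 ratio ran from −0.87 to −0.61 for acid and from −0.28 to 0.02 between strains. A fit to only the groups compared called 659 genes for acid in the mutant, and DESeq2 called 1044 between strains with acid. With total counts only, the share of calls that were higher went from 46.8% to 62.3% between strains with acid and from 58.5% to 70.3% for the untreated mutant against the acid-treated wild type, and the median log2 change of all genes went from 0.03 to 0.16 and from 0.01 to 0.17. The causes were not tested. Genes outside the segment were not followed through the alternatives.

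The labels do not say that replicate numbers pair cultures, so the numbers were not taken to pair them. Deviations from group means correlated above 0.1 in 2 of 15 same-numbered pairs of libraries and in 8 of 30 differently numbered pairs. Deviations within a group cancel out, so these counts cannot decide whether cultures were paired. A replicate block by title number called 739 genes for acid in the mutant and 391 between strains with acid, and a block by description number called 409 for the latter. Under both blocks SDH1 passed between untreated strains (−0.74 and −0.83) and for the response difference (0.95 and 1.06), and LSC1 did not pass between untreated strains (0.62 and 0.60). FUM1 for acid in the mutant did not pass under the block by description number (0.99), and no other call on the 6 genes changed under the blocks.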

Other observations

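The closest match to SDH1, YALI0_A14784g, and the closest match to SDH2, YALI0_A14806g, are neighbouring entries (rows 578 and 579) of the deposited table. YALI0_A14784g was at 87.3 ± 28.3 CPM in the untreated wild type and 55.86 ± 13.1 with acid (SD, n = 3 each), and YALI0_A14806g at 421.6 ± 58 and 531.2 ± 58.3. Whether they overlap or share reads was not tested.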
